A study of Mus musculus with 3 samples.

Results

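The genes described here are the mouse heat shock proteins and the DNAJ co-chaperones. Members were taken by symbol: names starting with Hsp90, or with Hspa, Hspb, Dnaja, Dnajb or Dnajc and a digit, together with Hspd1, Hspe1, Hsph1, Cryab, Hsf1 and Hsf2. The arrays measured 73 such genes through 102 probes, out of 20577 named genes in all. They comprised 9 small heat shock proteins, 13 genes of the HSP70 class including Hsph1, 3 HSP90 genes, 44 DNAJ genes (4 of type A, 12 of type B and 28 of type C), the 2 subunits of the mitochondrial chaperonin and 2 heat shock factors. Another 6 symbols of the gene table fit the name rule but had no matched probe, namely Hspa1b, Dnajb5 and 4 pseudogenes. Membership follows the symbol alone.

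Heat shock proteins are molecular chaperones, which keep other proteins folded, refold damaged ones or pass them on for degradation. HSP70 proteins bind and release exposed hydrophobic stretches in a cycle driven by ATP; DNAJ proteins, also called HSP40, deliver the client and start ATP hydrolysis, and HSP110 relatives exchange the nucleotide. Small heat shock proteins hold unfolding proteins without ATP, HSP90 matures kinases and steroid receptors, and heat shock factor 1 switches on the inducible genes under stress. Hepatocytes secrete large amounts of plasma protein through the endoplasmic reticulum, which has its own HSP70, HSP90 and DNAJ proteins.

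RNA from 3 kinds of cells of female mice was labelled with Cy3 and hybridised to single-colour Agilent expression arrays, with 1 array per kind and 5 samples pooled for each. iHep are hepatocyte-like cells: fibroblasts from a spleen remodelled with SiO2 (silica), given the lentivirus LV-3TF, whose 3 factors the labels do not name, and collected after 14 days of culture. PH are primary hepatocytes, freshly isolated and serving as the positive control. MF are the same kind of SiO2-remodelled spleen fibroblasts given the control virus LV-NC and also collected at 14 days. The study set iHep and PH against MF, and iHep is set against PH as well. With 1 pooled array per group there are no replicates, so no test, p-value or spread across samples exists and precision is limited by the count of arrays. MF was scanned apart from the other arrays, which were scanned together, so scan and group cannot be told apart in comparisons with MF. In pooled bulk RNA, fewer cells of a type and less RNA per cell cannot be told apart.

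Markers were read as a check of the labels. The 10 hepatocyte markers had a median level of -3.67 in iHep, 5.62 in PH and -5.56 in MF, with Apoa1 not detected above background by the iHep probe reading. The PH array also carried all 9 measured pancreatic acinar markers above background, with a log2 summed level of -0.08 in iHep, 8.70 in PH and -0.75 in MF. Macrophage markers (9 measured, 6 above background in iHep and 9 on each of the other arrays) had log2 summed levels of 0.69 in iHep, 6.66 in PH and 6.52 in MF. In iHep, C1qa, C1qc and Lyz2 were not well above background, and Adgre1 was so only through a probe other than the one used. The 10 fibroblast markers summed to 5.75 in iHep, 6.39 in PH and 9.26 in MF, and the 10 smooth muscle and contractile markers to 3.62 in iHep, 3.55 in PH and 7.89 in MF.

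Levels are given as log2 of the processed signal minus the 75th percentile of the array, so a level of 0 lies at that percentile, and a difference of 1 is 2-fold. That percentile was a signal of 3752 in iHep, 2081 in PH and 544 in MF, so every fold includes this scaling between arrays. A gene with several probes is read through the probe with the highest mean level, and levels of different genes are not compared. Among probes well above background, the dimmest read -7.32 in iHep, -6.89 in PH and -6.30 in MF. A gene counts as above background when any of its probes is, and for each member so counted this held for the probe used. Where a gene was above background on only 1 of the arrays compared, its fold is a bound, written "at least". The highest level of any gene was 5.76 in iHep, 6.98 in PH and 7.37 in MF, so the room at the bright end differed between arrays. Repeated spots of a probe had an SD of 0.0983 in iHep, 0.114 in PH and 0.101 in MF, whereas different probes of a gene gave differences with an SD of 0.84 between iHep and MF, 1.11 between PH and MF, and 1.09 between iHep and PH. The between-probe SD is near the 2-fold threshold used below, so differences close to 2-fold rest on 1 probe.

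The promoter windows of genes followed below are shown first for the heat shock element, the repeat of GAA and TTC units that heat shock factors bind. Windows run from 250 bases before the gene start to 50 after it and come from RefSeq, build GRCm38.p6; 57 of the 73 members have one. The 3-unit form, in which GAA and TTC units alternate with any 2 bases between them, was searched on both strands. It was present in 4 members (7.02%), namely Hspd1, Hspe1, Hsph1 and Dnajb6, and in 179 of 27025 genes in the table (0.662%). The 2-unit form, a GAA and a TTC unit in either order with the same spacing, which every 3-unit match also contains, was present in 15 members (26.3%) and in 4587 genes in all (17%). Hspb1 and Hspa1a are shown because they gave the largest iHep differences of the small and HSP70 classes, and Hspe1 because it held overlapping 3-unit matches while its level stayed within 2-fold across the arrays on the scale used here. Capitals mark 2-unit matches in Hspb1 and Hspa1a and 3-unit matches in Hspe1.
Hspb1, chr5:135887669-135887968, plus strand: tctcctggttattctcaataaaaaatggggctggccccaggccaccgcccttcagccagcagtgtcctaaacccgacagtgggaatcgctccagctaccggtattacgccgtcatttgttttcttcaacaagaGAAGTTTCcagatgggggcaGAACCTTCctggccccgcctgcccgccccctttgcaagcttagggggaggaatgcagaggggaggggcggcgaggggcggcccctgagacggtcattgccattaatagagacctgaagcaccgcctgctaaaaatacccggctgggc
Hspa1a, chr17:34972107-34972406, minus strand: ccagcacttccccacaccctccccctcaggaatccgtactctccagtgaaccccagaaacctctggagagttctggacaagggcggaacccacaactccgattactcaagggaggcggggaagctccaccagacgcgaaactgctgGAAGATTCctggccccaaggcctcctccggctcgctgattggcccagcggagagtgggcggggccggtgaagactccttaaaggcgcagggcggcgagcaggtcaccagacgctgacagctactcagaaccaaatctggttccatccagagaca
Hspe1, chr1:55087898-55088197, plus strand: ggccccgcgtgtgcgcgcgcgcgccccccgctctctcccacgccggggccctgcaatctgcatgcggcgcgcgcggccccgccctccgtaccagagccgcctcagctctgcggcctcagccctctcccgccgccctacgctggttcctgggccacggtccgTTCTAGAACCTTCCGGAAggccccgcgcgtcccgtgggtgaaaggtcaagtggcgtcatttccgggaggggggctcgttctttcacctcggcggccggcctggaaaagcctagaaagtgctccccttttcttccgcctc
The Hspb1 matches begin 117 and 97 bases before the gene start, the Hspa1a match 104 bases before it, and the Hspe1 matches 89 and 84 bases before it. A match is a description of the letters and no binding was measured.

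Of the 73 members, 71 were well above background on at least 1 array, with 68 in iHep, 70 in PH and 66 in MF; Dnajb7 and Dnajc5g were above it on none. For iHep over MF, 7 of 70 compared members were at least 2-fold higher (10% of them, against 19.8% of all 17165 genes compared) and 21 at least 2-fold lower (30%, against 23.5%). The median difference of the members was -0.23, against 0.09 for all genes. For PH over MF, 13 of 71 were higher (18.3%, against 30.9% of 17779 genes) and 17 lower (23.9%, against 25.4%), with a median of -0.08 against 0.12 for all genes. For iHep over PH, 10 of 71 were higher (14.1%, against 23.2% of 17996 genes) and 21 lower (29.6%, against 36%), with a median of -0.47 against -0.30. Between iHep and MF, 40% of members passed 2-fold in either direction, against 43.4% of all genes, too close to be a result about the members. These shares were 42.3% against 56.3% between PH and MF, and 43.7% against 59.2% between iHep and PH. At a 4-fold threshold, 1 of 70 members was higher and 13 were lower in iHep than in MF. There 6.99% of all genes were higher and 11.6% lower (18.6% in either direction). In PH, 5 of 71 members were higher and 6 lower than in MF, where 18.4% of all genes were higher and 11.2% lower (29.7%). Set against PH, iHep had 3 of 71 members higher and 11 lower, where 10% of all genes were higher and 21.4% lower (31.5%). The comparisons share arrays and are not independent of each other.

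The balance of higher and lower members moved with the scaling. For PH over MF it was 13 higher and 17 lower of 71, but 10 and 21 of 71 after quantile normalization. In the authors' processed values, where only 52 members could be compared, it was 7 and 15. For iHep over PH it was 10 higher and 21 lower of 71, against 15 and 15 of 71 after quantile normalization and 10 and 11 of 52 in the authors' values. The shares of all genes moved as well. After quantile normalization, 23.6% were higher and 31% lower for PH over MF, and 31.1% and 25.6% for iHep over PH. In the authors' values these were 23.1% and 31.9% for PH over MF, and 31.1% and 24.7% for iHep over PH. The median of all genes moved at the same time, by -0.31 (PH over MF) and 0.51 (iHep over PH) after quantile normalization. Among the 63 members above background on all arrays, iHep had the lowest level in 30, PH in 20 and MF in 13, and 21 members stayed within 2-fold across the 3 arrays. The same counts were not made over all genes, so they are no result about the members.

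The small heat shock proteins had the class medians furthest from 0 in all comparisons under the main setting. With 1 background floor for all arrays their iHep over PH median shrank, and that of HSP90 lay further out. Hspb1, Hspb2, Hspb7 and Cryab were all more than 10-fold lower in iHep than in MF, and Hspb6 was 2.78-fold higher. Counted over the class, 1 of 8 compared members was higher and 5 were lower in iHep than in MF (median -2.67), 2 of 9 higher and 5 lower in PH than in MF (median -1.21), and 1 of 9 higher and 5 lower in iHep than in PH (median -1.39). The background shares are those given above for all genes.

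**Figure D1:**
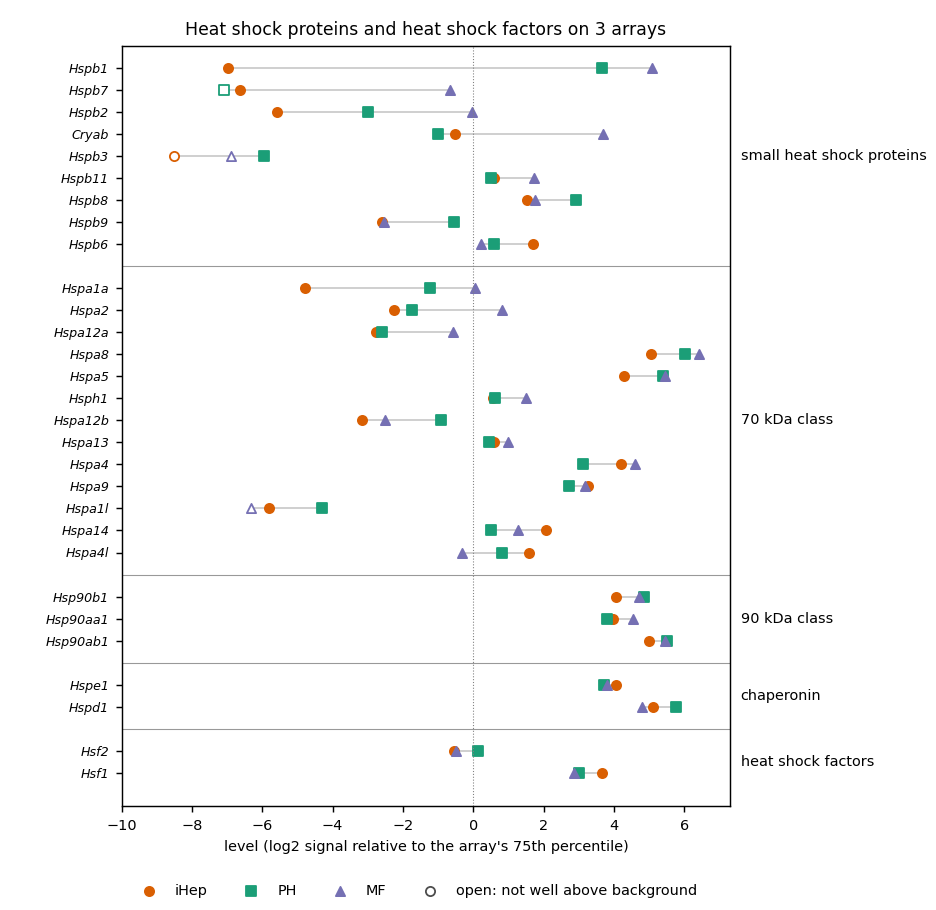
Level of each member outside the DNAJ class on the iHep (orange circles), PH (green squares) and MF (purple triangles) arrays, as log2 relative to the 75th percentile of the array; open symbols were not well above background, and 1 array stands for each group. Hspb1 lies at -6.99 in iHep, far left of 3.65 in PH and 5.07 in MF, whereas the HSP90, chaperonin and factor genes have their symbols close together.

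Hspb1, the small heat shock protein known in mouse as HSP25, which also binds actin, had a level of -6.99 in iHep, 3.65 in PH and 5.07 in MF. The processed signals behind these levels were 29.6 in iHep, 26096 in PH and 18242 in MF. iHep stood alone at the low end, near the background limit of its array, and its reading was still called above background. The difference was 4248-fold lower in iHep than in MF and 1590-fold lower in iHep than in PH, while PH was 2.67-fold lower than MF. Over the alternative settings the log2 difference of iHep over MF ran between -12.05 and -10.32. A single probe reads Hspb1. The genes with the nearest pattern over the 3 arrays, by Euclidean distance of centred levels among 13928 genes above background on all arrays, were Ctss (0.93), Gas6 (0.996), Lilrb4a (0.998), Pirb (1.59) and Lyz1 (2.02). Ctss is also on the macrophage marker list, whose summed level was likewise low in iHep and similar in PH and MF. The part of macrophage RNA in the Hspb1 readings was not tested.

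Cryab, alpha-B crystallin, and Hspb2, its neighbour in the mouse genome, are both found in muscle, among other tissues. Cryab had a level of -0.51 in iHep, -1.01 in PH and 3.69 in MF. It was 18.4-fold lower in iHep and 25.9-fold lower in PH than in MF, and iHep and PH were within 2-fold of each other. Its other probe gave log2 differences of -3.63 for iHep over MF and -3.36 for PH over MF. Hspb2 read -5.58 in iHep, -3.0 in PH and -0.04 in MF. That is 46.6-fold lower in iHep and 7.80-fold lower in PH than in MF, and 5.98-fold lower in iHep than in PH. Hspb7, a small heat shock protein of heart and skeletal muscle, read -6.65 in iHep, -7.08 in PH, where it was not well above background, and -0.68 in MF. It was 62.7-fold lower in iHep and at least 74.3-fold lower in PH than in MF. On the log2 scale the differences were -5.97 for iHep over MF and -6.22 for PH over MF, and under normexp -4.63 and -4.17. Repeated spots of the Hspb7 probe, which show array noise only, had an SD of 0.117 over 9 spots in iHep, 0.317 over 10 in PH and 0.0247 over 10 in MF. Cryab, Hspb2 and Hspb7 were all highest in MF, as was the summed level of the smooth muscle and contractile markers (3.62 in iHep, 3.55 in PH and 7.89 in MF). Among those, Myh11 and Lmod1 were not well above background in iHep, while Smtn was about even, at 3.33 in iHep, 3.03 in PH and 3.09 in MF. The skeletal and cardiac muscle markers, with 7 of 10 above background on each array, summed to 1.74 in iHep, -1.38 in PH and 3.27 in MF. Acta1 alone read 3.22 in MF and -6.29 in iHep, and Tnnt2 alone 1.68 in iHep and -3.59 in MF. Hspb6, Hspb8 and Hspb3, the other small heat shock proteins listed for muscle, were not highest in MF. Hspb6 was highest in iHep and Hspb8 in PH, and Hspb3 was above background only in PH. The part of contractile or muscle cells in these readings was not tested.

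Other small heat shock proteins had different orders. Hspb6, known as HSP20 and a partner of actin regulators in smooth muscle, read 1.69 in iHep, 0.59 in PH and 0.21 in MF. It was the only small heat shock protein at least 2-fold higher in iHep than in MF (2.78-fold) on this scale, and it was 2.13-fold higher in iHep than in PH. Hspb8, which works with the co-chaperone Bag3 in clearing misfolded proteins, read 1.54 in iHep, 2.93 in PH and 1.76 in MF. PH was thus high, 2.24-fold above MF, and iHep was 2.62-fold below PH and within 2-fold of MF. Hspb9, a small heat shock protein of testis, read -2.60 in iHep, -0.56 in PH and -2.55 in MF. PH was again the high array, 3.96-fold above MF, and iHep was 4.11-fold below PH. Hspb11, also called Ift25 and known as a subunit of intraflagellar transport, read 0.58 in iHep, 0.51 in PH and 1.72 in MF, so it was 2.19-fold lower in iHep and 2.31-fold lower in PH than in MF. Hspb3, a partner of Hspb2 in muscle, was above background only in PH, at -5.94, and was at least 2.60-fold lower in iHep than in PH. With quantile normalization this bound was -0.24 on the log2 scale, so the 2-fold call ended there.

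In the HSP70 class, 1 of 13 members was higher and 5 were lower in iHep than in MF (median -0.66), 3 higher and 4 lower in PH than in MF (median -0.57), and 2 higher and 4 lower in iHep than in PH (median -0.16). The median turned to 0.044 for iHep over MF in the authors' values, and for iHep over PH to 0.48 there and to 0.17 after quantile normalization, so no direction is given for the class in these. As shares, 7.69% of its members were higher and 38.5% lower in iHep than in MF, against 19.8% and 23.5% of all genes. For PH over MF these were 23.1% and 30.8%, against 30.9% and 25.4%. For iHep over PH they were 15.4% and 30.8%, against 23.2% and 36%. Hspa1a, the stress-inducible cytosolic HSP70, gave the largest differences. It read -4.80 in iHep, -1.24 in PH and 0.05 in MF. iHep was again the low array, 28.8-fold below MF and 11.8-fold below PH, and PH was 2.44-fold below MF. Over the alternatives the iHep over MF difference lay between -4.85 and -4.30 on the log2 scale. The near-identical copy Hspa1b had no matched probe, so the reading may hold RNA of both genes.

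Hspa8, the constitutive cytosolic HSP70 known as HSC70, read 5.06 in iHep, 6.03 in PH and 6.41 in MF. It was 2.55-fold lower in iHep than in MF, and its 3 probes gave log2 differences between -1.54 and -1.35. It lay close to the highest level of any gene on the iHep array, and the difference was -0.14 both after quantile normalization and in the authors' values, so the 2-fold call ended there. Hspa2, an HSP70 needed in male meiosis, read -2.26 in iHep, -1.76 in PH and 0.81 in MF. It was 8.37-fold lower in iHep and 5.90-fold lower in PH than in MF, and iHep and PH were within 2-fold. Hspa12a, a distant HSP70 relative, had the same order, with -2.76 in iHep, -2.60 in PH and -0.57 in MF. The folds were 4.57-fold lower in iHep and 4.09-fold lower in PH than in MF. Hspa12b, its paralogue known from endothelial cells, read -3.16 in iHep, -0.92 in PH and -2.50 in MF, which put PH 2.99-fold above MF and iHep 4.71-fold below PH. Hspa1l, the testis member, was not well above background in MF. It read -5.82 in iHep and -4.32 in PH, at least 3.97-fold higher in PH than in MF. That bound was 0.92 on the log2 scale after quantile normalization and 0 under normexp, so the 2-fold call ended in both.

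HSP110 relatives, which release nucleotide from HSP70, had different orders over the arrays. Hspa4l read 1.59 in iHep, 0.81 in PH and -0.31 in MF. It was the only HSP70 class gene at least 2-fold higher in iHep than in MF (3.73-fold), and PH was 2.18-fold above MF. Hsph1, whose window holds the 3-unit heat shock element, read 0.57 in iHep, 0.62 in PH and 1.49 in MF, with log2 differences of -0.91 for iHep over MF and -0.87 for PH over MF through the probe used and -1.48 and -1.10 through the other. Over the mean of both probes iHep over MF was -1.20, past 2-fold. Hspa4 read 4.20 in iHep, 3.12 in PH and 4.58 in MF, which is 2.76-fold lower in PH than in MF and 2.12-fold higher in iHep than in PH. Its 3 probes disagreed, between -2.14 and 1.08 for iHep over PH and between -1.46 and 0.39 for PH over MF, so no direction is given for Hspa4 in either. Hspa14, which pairs with Dnajc2 at the ribosome in mammals, read 2.06 in iHep, 0.51 in PH and 1.28 in MF, 2.91-fold higher in iHep than in PH. Hspa9, the mitochondrial HSP70 known as mortalin, stayed within 2-fold (3.26 in iHep, 2.72 in PH and 3.17 in MF), as did Hspa13, a microsomal member.

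HSP90 was an even class, with 0 of 3 genes past 2-fold in any comparison, under the main and every alternative setting. Of all genes, 43.4% passed 2-fold between iHep and MF under the main setting, 56.3% between PH and MF, and 59.2% between iHep and PH. Hsp90aa1, the inducible cytosolic form, read 3.97 in iHep, 3.80 in PH and 4.53 in MF. Hsp90ab1, the constitutive cytosolic form, read 4.99 in iHep, 5.51 in PH and 5.44 in MF. The class median was -0.56 for iHep over MF. Between PH and MF it was 0.07, and between iHep and PH -0.52. The sign of the last 2 turned under quantile normalization and in the authors' values, so no direction is given for them. Mitochondrial chaperonin subunits were also within 2-fold on this scale: Hspd1, known as HSP60, read 5.10 in iHep, 5.77 in PH and 4.79 in MF, and Hspe1, known as HSP10, read 4.07 in iHep, 3.71 in PH and 3.79 in MF. The largest of these differences was 0.98 on the log2 scale, for Hspd1 in PH over MF. Hsf1, the main activator of the inducible genes, read 3.67 in iHep, 3.01 in PH and 2.87 in MF, and Hsf2, a related factor, read -0.55 in iHep, 0.14 in PH and -0.49 in MF. Neither factor passed 2-fold on this scale. These readings depend on how the bright end is scaled: after quantile normalization Hspd1 was 1.23 for iHep over MF, Hspe1 1.02 for iHep over PH, and Hsf1 1.11 above MF and 1.11 above PH in iHep, all on the log2 scale and past 2-fold.

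The inducible cytosolic genes differed in the size of their difference from MF. Of 7 measured, 3 were at least 2-fold lower in iHep than in MF (42.9%, against 23.5% of all genes), namely Hspb1, Cryab and Hspa1a. Higher ones numbered 0, against 19.8% of all genes. The median of the 7 was -0.91. Dnajb1, the classical inducible partner of HSP70, read 1.43 in iHep, 1.74 in PH and 1.40 in MF. Dnaja1, its type A counterpart, read 2.47 in iHep, 3.63 in PH and 2.81 in MF, within 2-fold of MF in both and 2.24-fold lower in iHep than in PH. That call ended in the authors' values, at -0.89 on the log2 scale. Together with Hsph1 and Hsp90aa1, these genes showed between -0.91 and 0.03 on the log2 scale for iHep over MF, against -12.05 for Hspb1, -4.20 for Cryab and -4.85 for Hspa1a.

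**Figure D2:**
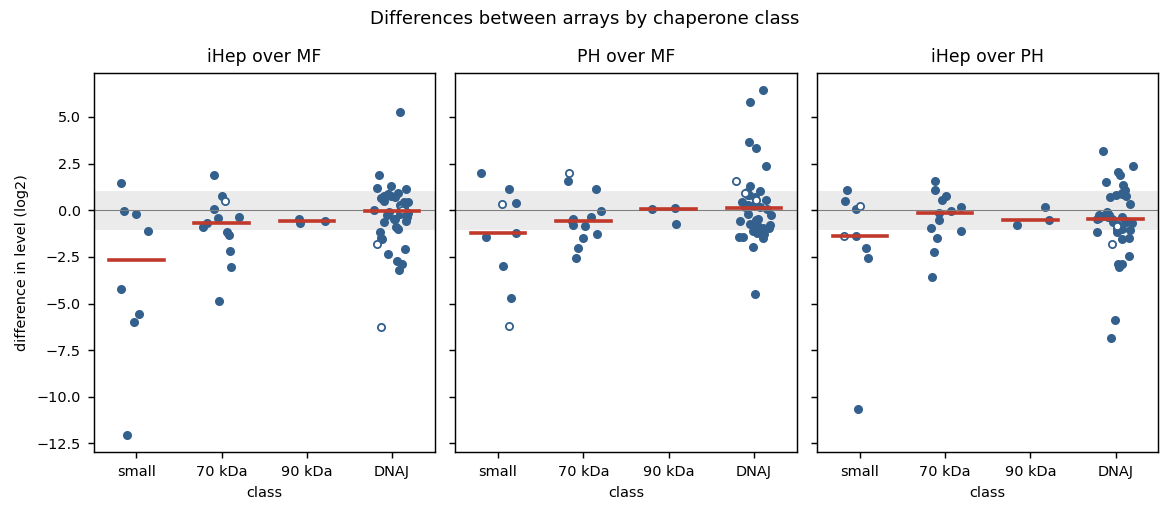
Log2 difference of each member (points; open points are bounds) by class, with a panel each for iHep over MF, then PH over MF, then iHep over PH; the red line is the class median with bounds and the grey band marks differences within 2-fold. The small heat shock proteins reach furthest down in iHep over MF, to -12.05 for Hspb1, whereas all HSP90 points lie inside the band.

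Among the 44 DNAJ genes, 5 of 42 compared were higher and 11 lower in iHep than in MF (median -0.04), 8 higher and 8 lower in PH than in MF (median 0.12), and 7 higher and 12 lower in iHep than in PH (median -0.46). As shares, 11.9% were higher and 26.2% lower in iHep than in MF, against 19.8% and 23.5% of all genes. For PH over MF each share was 19%, against 30.9% and 25.4%. For iHep over PH they were 16.7% and 28.6%, against 23.2% and 36%. Type C genes spread furthest: 5 of 27 were higher (18.5%) and 6 lower (22.2%) in iHep than in MF, with a range from -3.18 to 5.29 on the log2 scale. Of 11 compared type B genes 0 were higher and 4 lower (36.4%) in iHep than in MF, and of the 4 type A genes 0 were higher and 1 lower (25%). The signs of the DNAJ medians against MF were not stable under other settings and carry no direction.

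**Figure D3:**
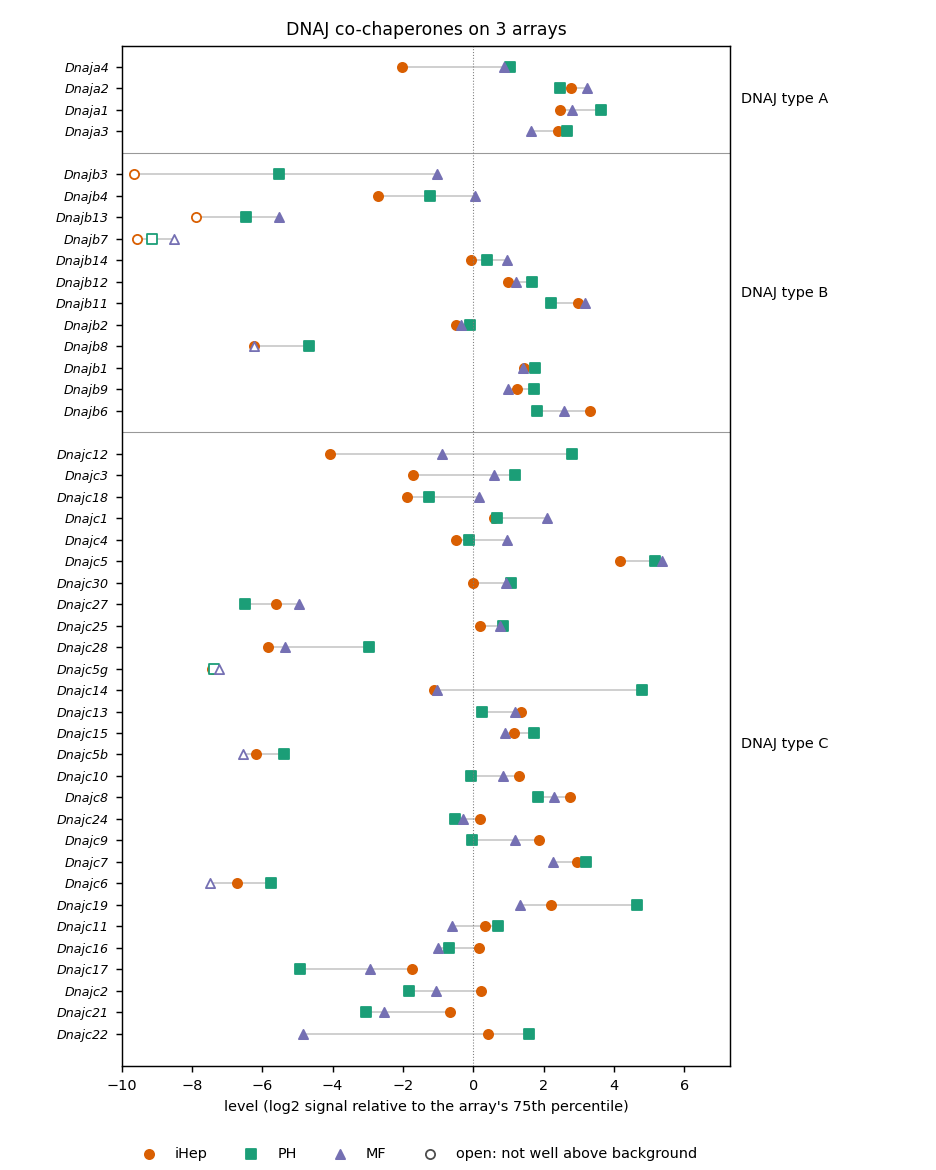
Level of each DNAJ gene on the iHep (orange circles), PH (green squares) and MF (purple triangles) arrays, as log2 relative to the 75th percentile of the array; open symbols were not well above background, and 1 array stands for each group. Dnajc22 has its MF symbol far left at -4.86 with iHep at 0.43 and PH at 1.59, and Dnajc12 has PH far right at 2.80 with iHep at -4.07 and MF at -0.89.

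Dnajc22, the mammalian counterpart of the Drosophila membrane protein Wurst, had the largest excess over MF of all DNAJ genes, in iHep and in PH alike. It read 0.43 in iHep, 1.59 in PH and -4.86 in MF. It was 39.0-fold higher in iHep and 87.1-fold higher in PH than in MF, and iHep was 2.23-fold below PH. Over the alternatives the log2 difference ran between 3.44 and 5.30 for iHep over MF and between 4.55 and 6.47 for PH over MF. Dnajc12, a co-chaperone of phenylalanine hydroxylase and other aromatic amino acid hydroxylases in humans, differed between iHep and PH. It read -4.07 in iHep, 2.80 in PH and -0.89 in MF. PH was the high array, 12.9-fold above MF, and iHep the low one, 9.09-fold below MF and 117-fold below PH. Both genes have a single probe. As the pancreatic acinar markers were high in PH as well, their part in the genes that were high in PH was not tested.

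A pair of genes high in PH rested on 1 of their probes. Dnajc14, a membrane protein of the endoplasmic reticulum, read -1.11 in iHep, 4.78 in PH and -1.02 in MF through the brighter probe, 56.1-fold higher in PH than in MF. Its other probe read -3.51 in iHep, -2.83 in PH and -3.56 in MF, a difference of only 0.73 for PH over MF on the log2 scale. Dnajc19, a subunit of the motor that imports proteins into mitochondria, read 2.22 in iHep, 4.65 in PH and 1.33 in MF, 10.03-fold higher in PH than in MF. Its other probe, on another transcript of the gene, gave 0.93 on the log2 scale for that comparison. Dnajc28 read -5.84 in iHep, -2.97 in PH and -5.35 in MF, so PH was 5.21-fold above MF and iHep 7.28-fold below PH. After normexp background correction its PH over MF difference was 0.38. Of 8 mitochondrial members, 3 were higher (37.5%, against 30.9% of all genes) and 0 lower in PH than in MF: Dnajc19, Dnajc11, a protein of mitochondrial membranes (1.32 on the log2 scale), and Dnaja3, the type A gene of mitochondria (2.06-fold). The Dnajc11 call ended over the mean of its probes, at 0.76, and the Dnaja3 call after quantile normalization, at 0.93. In iHep 0 of 8 were past 2-fold of MF in either direction under the main setting, against 43.4% of all genes. Hspd1, among these 8, was past 2-fold after quantile normalization and in the authors' values, at 1.23 on the log2 scale in both.

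Among DNAJ genes of the endoplasmic reticulum, Dnajc3, Dnajc18, Dnajc1 and Dnajb14 were at least 2-fold lower in iHep than in MF, and Dnajc16 was higher. Dnajc3, a partner of the HSP70 protein BiP (Hspa5) known as p58IPK, read -1.72 in iHep, 1.17 in PH and 0.60 in MF. iHep was the low array, 4.99-fold below MF and 7.41-fold below PH, and PH was within 2-fold of MF. Dnajc18 read -1.90 in iHep, -1.25 in PH and 0.17 in MF, 4.19-fold lower in iHep and 2.68-fold lower in PH than in MF. Dnajc1, a membrane-bound partner of BiP, read 0.58 in iHep, 0.66 in PH and 2.10 in MF, 2.87-fold lower in iHep and 2.70-fold lower in PH than in MF. Dnajb14 was 2.03-fold lower in iHep than in MF. Dnajb9, which binds BiP and is induced by unfolded proteins, read 1.25 in iHep, 1.72 in PH and 0.99 in MF, within 2-fold, with 1.03 for PH over MF over the mean of its probes. Dnajb11, a soluble BiP partner, read 2.98 in iHep, 2.20 in PH and 3.18 in MF, and its other probe gave -2.46 for iHep over PH where the one used gave 0.77. Dnajc10, which reduces disulfide bonds for degradation, read 1.28 in iHep, -0.07 in PH and 0.85 in MF. Its 2.56-fold excess in iHep over PH was 0.75 on the log2 scale over the mean of its probes. Dnajc16, a membrane protein, was 2.21-fold higher in iHep than in MF, and at 0.997 on the log2 scale under normexp.

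Counted with Hspa5, Hspa13 and Hsp90b1, 1 of 13 members of this compartment was higher and 5 lower in iHep than in MF (median -0.40), and 1 was higher and 2 were lower in PH than in MF (median -0.05). As shares, 7.69% were higher and 38.5% lower in iHep than in MF, against 19.8% and 23.5% of all genes. For PH over MF they were 7.69% and 15.4%, against 30.9% and 25.4%. Hspa5 itself read 4.28 in iHep, 5.40 in PH and 5.46 in MF, 2.26-fold lower in iHep than in MF and 2.18-fold lower in iHep than in PH. Those calls ended after quantile normalization, at -0.38 for iHep over MF and -0.30 for iHep over PH. Hsp90b1, the HSP90 of the endoplasmic reticulum known as GRP94, read 4.05 in iHep, 4.84 in PH and 4.71 in MF, in the same order but within 2-fold. Genes nearest to Hspa5 in pattern over the 3 arrays were Wdr92 (distance 0.0041), Snapc5 (0.015), Homer3, Cgrrf1 and Slc16a8. Likeness over 3 arrays is a coarse measure.

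The windows of Hspa5, Hsp90b1 and Dnajc3 are shown because they are the members that hold the endoplasmic reticulum stress element, which is CCAAT and CCACG with any 9 bases between them, searched on both strands. It was found in 3 of 57 members (5.26%) and in 37 of 27025 genes (0.137%). Capitals mark the matches, and the second one in Hsp90b1 is on the reverse strand.
Hspa5, chr2:34771840-34772139, plus strand: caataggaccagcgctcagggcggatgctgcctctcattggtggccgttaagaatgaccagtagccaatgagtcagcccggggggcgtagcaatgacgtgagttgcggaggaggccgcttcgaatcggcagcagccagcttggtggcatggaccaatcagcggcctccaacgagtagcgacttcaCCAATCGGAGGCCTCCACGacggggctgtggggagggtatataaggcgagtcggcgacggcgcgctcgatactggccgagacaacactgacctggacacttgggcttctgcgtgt
Hsp90b1, chr10:86705395-86705694, minus strand: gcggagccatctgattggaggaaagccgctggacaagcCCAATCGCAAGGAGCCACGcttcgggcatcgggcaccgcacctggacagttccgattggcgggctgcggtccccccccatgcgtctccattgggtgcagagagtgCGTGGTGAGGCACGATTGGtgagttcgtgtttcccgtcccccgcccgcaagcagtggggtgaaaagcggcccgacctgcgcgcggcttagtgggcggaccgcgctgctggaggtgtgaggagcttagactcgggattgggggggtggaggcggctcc
Dnajc3, chr14:118937682-118937981, plus strand: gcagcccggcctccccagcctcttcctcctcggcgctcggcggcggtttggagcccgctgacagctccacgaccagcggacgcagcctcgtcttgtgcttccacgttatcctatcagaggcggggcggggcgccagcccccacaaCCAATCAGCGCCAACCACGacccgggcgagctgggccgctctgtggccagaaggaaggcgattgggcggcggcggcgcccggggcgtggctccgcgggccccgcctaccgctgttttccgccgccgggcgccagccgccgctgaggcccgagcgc
The matches begin 65 bases before the gene start in Hspa5, 212 and 107 before it in Hsp90b1, and 105 before it in Dnajc3. Each of these genes had its lowest level in iHep, with a difference from MF of -2.32 on the log2 scale for Dnajc3, -1.18 for Hspa5 and -0.66 for Hsp90b1. After quantile normalization these were -2.19, -0.38 and -0.065.

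Of the cytosolic type A and B genes, Dnaja4 and Dnajb4 were lower in iHep. Dnaja4 read -2.02 in iHep, 1.04 in PH and 0.87 in MF, 7.41-fold lower in iHep than in MF and 8.33-fold lower in iHep than in PH. Its other probe was not well above background in iHep and gave -0.98 for PH over MF. Dnajb4, an HSP70 partner, read -2.70 in iHep, -1.23 in PH and 0.04 in MF, 6.68-fold lower in iHep and 2.41-fold lower in PH than in MF. Dnaja2, the constitutive type A partner of HSC70, read 2.79 in iHep, 2.47 in PH and 3.24 in MF, within 2-fold, although the authors' values gave -1.12 for iHep over MF. Dnajb2 and Dnajc7 likewise stayed within 2-fold through the probe used. Dnajb6, which suppresses aggregation and whose window holds the 3-unit element, read 3.32 in iHep, 1.81 in PH and 2.57 in MF. It was 2.84-fold higher in iHep than in PH, with 4 probes between 0.34 and 1.51 on the log2 scale.

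Besides Dnajc22 and Dnajc16, the genes higher in iHep than in MF were Dnajc21, Dnajc2 and Dnajc17. Dnajc21, which takes part in ribosome assembly, read -0.66 in iHep, -3.06 in PH and -2.55 in MF, 3.70-fold higher in iHep than in MF and 5.25-fold higher in iHep than in PH. Its other probe gave 0.85 and 0.72 on the log2 scale for the same comparisons, short of 2-fold. Dnajc2, the ribosome-associated partner of Hspa14, read 0.22 in iHep, -1.84 in PH and -1.07 in MF, 2.43-fold above MF and 4.15-fold above PH in iHep. Dnajc17, which has an RNA-binding domain, read -1.74 in iHep, -4.92 in PH and -2.94 in MF. iHep was 2.29-fold above MF and 9.09-fold above PH, and PH was 3.96-fold below MF. Under normexp the iHep over MF difference was 0.58, below the threshold. Dnajc9, a chaperone of histones, read 1.85 in iHep, -0.04 in PH and 1.18 in MF, 3.72-fold higher in iHep than in PH and 2.34-fold lower in PH than in MF. The endosomal gene Dnajc13 was 2.16-fold higher in iHep than in PH.

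Dnajc5, the cysteine-string protein of secretory vesicles, read 4.18 in iHep, 5.17 in PH and 5.36 in MF through its brightest probe, 2.26-fold lower in iHep than in MF. Another of its 3 probes gave 1.44 on the log2 scale for that comparison, so no direction is given for Dnajc5. Dnajc6, auxilin, which strips clathrin from vesicles with HSC70, was not well above background in MF, so its differences from MF are bounds only. It read -6.73 in iHep and -5.75 in PH, within 2-fold of each other. Of 6 compared genes biased to the germ line, 0 were higher and 2 lower in iHep than in MF. These were 0% and 33.3%, against 19.8% and 23.5% of all genes, and 5 of the 6 differences were bounds. In PH, 3 were higher and 1 lower than in MF (50% and 16.7%, against 30.9% and 25.4%). In iHep, 0 were higher and 4 lower than in PH (0% and 66.7%, against 23.2% and 36%). After quantile normalization the calls against PH ended for Hspa1l, Dnajb8 and Dnajb3. Dnajb3, a testis gene, was not well above background in iHep, read -5.53 in PH and -1.05 in MF, at least 77.7-fold lower in iHep and 22.4-fold lower in PH than in MF. Over the alternatives the iHep over MF value lay between -8.60 and -4.87 on the log2 scale. Dnajb13 was at least 3.51-fold lower in iHep than in MF, a call that ended with 1 background floor for all arrays (-0.79 on the log2 scale). Likewise, Dnajb8 in PH exceeded MF at least 2.95-fold, a bound that shrank to 0.47 on the log2 scale after quantile normalization and to 0 under normexp. Among the remaining calls, Dnajc4 was 2.75-fold lower in iHep and 2.13-fold lower in PH than in MF, Dnajc27 was 2.85-fold lower in PH than in MF, and Dnajc30 was 2.10-fold lower in iHep than in PH. Dnajb12, Dnajc8, Dnajc15, Dnajc24 and Dnajc25 were within 2-fold in all comparisons through the probe used. Dnajc5b was within 2-fold between iHep and PH. Against MF it gave only bounds, at least 1.09-fold higher in iHep and at least 1.88-fold higher in PH, which cannot place it within 2-fold. Dnajc8 passed 2-fold over the mean of its probes, at -1.11 in PH against MF and 1.24 in iHep against PH.

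Agreement between probes could be checked for members with at least 2 probes above background on both arrays: 19 genes for iHep over MF and 20 for each of the other comparisons. The gap between the lowest and highest difference of a gene had a median of 0.66 between iHep and MF, 0.84 between PH and MF, and 1.01 between iHep and PH. Signs were opposite within 7 genes for iHep over MF and within 6 for each of the others. Opposite differences of at least 2-fold occurred for Dnajc5 in iHep over MF and for Hspa4 in iHep over PH. Of the single-member calls, 22 of 28 between iHep and MF, 24 of 30 between PH and MF, and 22 of 31 between iHep and PH held under all alternative settings that gave a value. The 4-fold threshold was not among these settings. Averaging of probes could not end the call of a gene with a single probe. Filters on dim probes could not end that of a gene above background on all arrays.

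**Figure D4:**
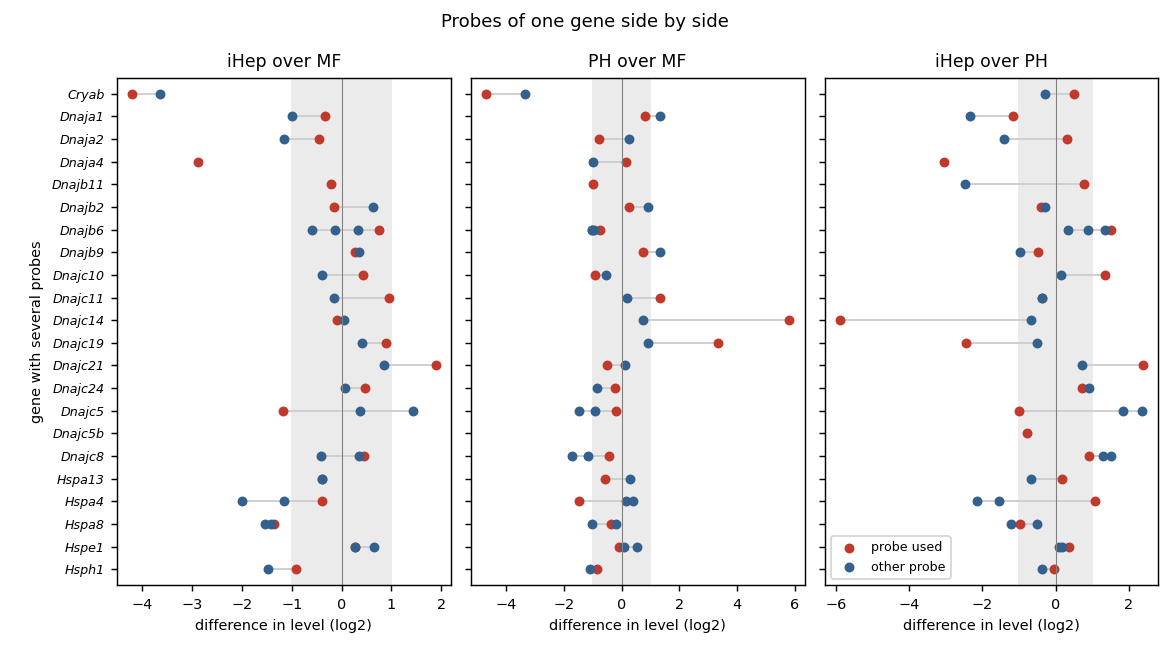
Log2 difference of every probe above background on both arrays, for members with several probes, with a panel each for iHep over MF, then PH over MF, then iHep over PH; red points are the probe used, blue points the other probes, and the grey band marks differences within 2-fold. The Hspa8 probes lie close together in iHep over MF, between -1.54 and -1.35, while the Dnajc14 probes lie at 0.73 and 5.81 in PH over MF.

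Partners of the chaperones were followed through lists of other genes. These lists were read under the main setting only, so their dependence on scaling was not tested. Of 34 measured HSP70 and HSP90 co-chaperones, 5 were higher and 3 lower in iHep than in MF (14.7% and 8.82%, against 19.8% and 23.5% of all genes), with a median of 0.05. In PH, 8 of 33 were higher and 5 lower than in MF (24.2% and 15.2%, against 30.9% and 25.4%), with a median of -0.05. Fkbp5, an HSP90 partner at the glucocorticoid receptor and itself a target of it, read 3.85 in iHep, 3.57 in PH and 0.67 in MF, 9.08-fold higher in iHep and 7.44-fold higher in PH than in MF. Fkbp4, its relative at the same receptors, was 2.91-fold higher in iHep and 4.13-fold higher in PH than in MF, and the HSP90 co-chaperone Chordc1 was 3.79-fold higher in iHep and 4.55-fold higher in PH. Bag2, which inhibits the ubiquitin ligase working with HSP70, read 0.49 in iHep, -3.37 in PH and 0.42 in MF, low in PH alone. Sil1, the nucleotide exchange factor of BiP, read 0.27 in iHep, 2.21 in PH and 2.51 in MF, 4.73-fold lower in iHep than in MF. Unc45b, a myosin chaperone, read -7.03 in iHep, -1.30 in PH and -5.07 in MF, 13.6-fold higher in PH than in MF. Mzb1, an endoplasmic reticulum protein of B cells, exceeded its MF level at least 4.83-fold in PH.

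The TRiC chaperonin and prefoldin, which fold actin and tubulin, split by array under the main setting, the only one run for them. Of 14 genes, 1 was higher and 0 lower in iHep than in MF (median 0.10). In PH 1 was higher and 7 were lower than in MF (50% lower, against 25.4% of all genes), with a median of -0.98. Between iHep and PH, 8 were higher and 0 lower in iHep (57.1% higher, against 23.2% of all genes), with a median of 1.19. Cct2 read 3.66 in iHep, 2.0 in PH and 4.03 in MF, 4.09-fold lower in PH than in MF, and Pfdn2 was 4.24-fold lower there. Of 20 folding and unfolded protein response genes of the endoplasmic reticulum, 0 were higher and 4 lower in iHep than in MF (20% lower, against 23.5% of all genes), with a median of -0.46. In PH, 4 were higher and 5 lower than in MF (20% and 25%, against 30.9% and 25.4%), with a median of 0.02. Herpud1, which acts in degradation at that membrane, read 3.15 in iHep, 4.74 in PH and 2.5 in MF, 4.72-fold higher in PH than in MF. The stress sensor Ern1 was 5.08-fold higher in PH than in MF, and Derl3, a degradation factor of secretory cells, was 5.03-fold higher in PH than in MF and at least 4.30-fold lower in iHep than in MF. Ddit3, the transcription factor CHOP of prolonged stress, read 1.02 in iHep, -2.82 in PH and 1.43 in MF, 18.97-fold lower in PH than in MF. Among the 5 other heat shock factors and their regulators, Hsf4, the factor of the lens, was 4.21-fold lower in iHep than in MF.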

How the data were processed

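Sample titles gave the groups. Intensity was deposited per spot, unlogged, by Agilent Feature Extraction 11.0.1.1, per the file headers (the submitters' processing notes name 9.1), background-subtracted and not normalized between arrays. The authors' deposited table holds log2 values for 26049 probes, with normalization, scale and centring otherwise unknown; its columns had medians of 7.01 (iHep), 7.07 (PH) and 7.02 (MF), correlated with the scanner values at 0.998, 0.994 and 0.997, and served as an alternative.

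Values used here were log2 of processed intensity minus the 75th percentile of each array. Control spots and spots with outlier marks (230 in iHep, 383 in PH, 190 in MF, of 43020) were left out, and none was saturated. Spots of a probe were averaged, and a probe counted as above background (and a gene with it) when at least 0.5 of its spots were. Of 39181 probes, 27076 were named by matching the transcript accession to RefSeq genes of GRCm38.p6, and 12105 had no name here. The arrays were annotated on mm9, so positions are given only for the RefSeq promoter windows. The highest-reading probe stood for a gene, and a bound took the dim array at its own reading or at the lowest level above background, whichever was higher.

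Counts at 2-fold describe these arrays and are no test. Members, lists and classes were chosen with earlier results of these data known. The named DNAJ genes were those at least 4-fold different, those with disagreeing probes and a set of well-studied ones; further members were named, to account for all, after their values were seen. Co-chaperones were named from 4-fold. Calculations used Python 3.11.15, pandas 2.3.3, R 4.3.3 and limma 3.58.1, and were tested on simulated data. Alternatives were normexp (offset 50) on median signals, quantile normalization, scaling to the median, the authors' values, other filters on dim probes, the mean or median of a gene's probes, a 4-fold threshold and, chosen after seeing the data, 1 background floor for all arrays.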

Additional observations from a re-analysis of the deposited data

How the results depend on the processing

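With a 4-fold threshold, 1 member was higher and 13 lower for iHep over MF, 5 higher and 6 lower for PH over MF, and 3 higher and 11 lower for iHep over PH. The small heat shock protein median for iHep over MF was -1.13 over genes above background on all arrays and -1.61 with no filter. In the authors' processed values, which hold 54 of the members, 7 of 52 compared were higher for PH over MF and 11 of 52 lower for iHep over PH. There the HSP70 medians were 0.044 for iHep over MF and 0.48 for iHep over PH, and the HSP90 medians 0.56 for iHep over PH and -0.047 for PH over MF. Quantile normalization gave HSP70 0.17 and HSP90 0.56 for iHep over PH, and HSP90 -0.039 for PH over MF. The DNAJ median for PH over MF was -0.22 under normexp and -0.036 with no filter, and for iHep over MF it was 0.026 over the mean and 0.0094 over the median of a gene's probes. Over the mean and the median of probes, Dnajc5 was 0.21 and 1.44 for iHep over MF and Hspa4 -0.86 and -1.53 for iHep over PH; over the median Hspa4 was 0.39 for PH over MF. The cause of these changes was not tested. Scaling to the median gave 14 members higher for PH over MF and 22 lower for iHep over PH, and 1 background floor gave 20 lower for iHep over MF and 19 lower for iHep over PH; their other counts were as reported, and no class median changed sign, though that of the small heat shock proteins for iHep over PH was -0.36 with 1 floor and -1.39 as reported. The median of all genes moved by -0.73 (iHep over MF) and -0.63 (PH over MF) under normexp. Naming probes by the files' own gene names was not run. No paired analysis was possible because each group has 1 array, and no replicate could be left out for the same reason. Signal over background limits Hspb1 and Hspb7 in iHep and the genes with bounds.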
